A study of Rattus norvegicus with 52 samples.

Results

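The rows described here are the genes that were found in nearly every one of 52 single cells cut from carotid aneurysms of rats. A row of the count table was a member if it held 1 or more raw counts in at least 50 of the 52 cells, and P2ry6 was left out. Of 22081 rows in all, 52 met the threshold (0.235%), which left 51 members. The counts themselves set the membership: the members were chosen by their own detection in these cells, and that wide detection is a description and carries no test. The cells came from 3 male Sprague Dawley rats aged 7 weeks (5, 23 and 24 cells), and all belong to 1 group. In each rat the left common carotid artery had been sewn end to side to the right one to form a bifurcation, the left renal artery had been tied, and the food held 3-aminopropionitrile at 0.12%, which blocks lysyl oxidase, with salt raised to 8%. Macrophages were marked by nanoparticles carrying the dye DiI, given into a vein 3 days before the cells were cut by laser, and libraries were made with a SMART-Seq Single Cell Plus kit. The label marks cells that took up particles, and no untreated artery was analysed here, so no comparison between groups was possible.

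Libraries that start from 1 cell lose many transcripts at reverse transcription, so a gene at a modest level is seen in some cells and missed in others. Genes seen in almost all cells are usually those with very abundant messenger RNA, such as ribosomal proteins, cytoskeletal actin, ferritin and the mitochondrially encoded subunits of the respiratory chain. Macrophages add to these their own abundant transcripts, among them lysozyme, the complement C1q chains, the lysosomal glycoprotein Cd68 and, in lipid-loaded cells, Apoe.

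None of these classes was among the members. No member was on the list of macrophage genes (25 genes in the table), lipid-associated genes (13), smooth muscle genes (10), fibroblast genes (9), endothelial genes (9) or housekeeping genes (28), and none was a ribosomal protein gene (78) or mitochondrially encoded (13). Among housekeeping genes, Tpt1 was found in 25 cells and the actin gene Actb in 22 cells. The most often detected macrophage genes were the Fc receptor Fcgr3a in 35 cells, the mannose receptor Mrc1 in 33 cells and the oxidase subunit Cybb in 16 cells, while Csf1r was found in 12 cells, Lyz2 in 9, Cd68 in 6 and C1qa in 3. Apoe was found in 20 cells, and the smooth muscle genes Mylk and Acta2 in 39 and 35 cells. The 25 macrophage genes were found in a median of 6 cells, so most of these markers were at 0 in most cells at this depth, and their sum was at 0 in 3 cells. Gapdh was on the housekeeping list, but no row of the count table had that name.

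The rule asks for counts in at least 50 of the 52 cells, so the members had few gaps by construction. Of the 51 members, 22 had counts in all 52 cells, 13 in 51 cells and 16 in 50 cells. Of the 2652 combinations of member and cell, 45 were at 0, and they fell in 19 cells. The shallowest cell had 1538 counts in total, the median cell 15068 and the deepest 84848, and the 26 cells with lower totals held 40 of the 45 gaps. Cell 23 of rat 2, with 2141 counts, lacked 11 members, cell 18 of rat 2, with 1538 counts, lacked 8, and cell 21 of rat 2 lacked 4. All members were found in 33 cells. Just outside the threshold stood 14 rows in 49 cells and 19 rows in 48 cells. The lowest total inside the threshold was that of Paqr9, a progestin and adipoQ receptor family member, at 283 counts over 50 cells. The rows in 49 cells held 210 counts (Ebf1) to 2709 counts (Fan1).

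A high total did not by itself bring wide detection. At least 283 counts, the lowest total of a member, were held by 397 rows in all, and 345 of them were not found in 50 cells. Those 345 rows were found in a median of 22 cells. Rnf128, with 2959 counts in 5 cells, and Snrnp200, with 1447 counts in 6 cells, are examples chosen after their values were seen. Of the 51 rows with the highest totals, 22 were members. The number of members also moved with the rule and the cells. It was 29 at 2 or more counts and 11 at 5 or more counts. Without the 23 cells of rat 2, whose totals were lowest, 113 rows were found in at least 28 of the other 29 cells, 50 of them members. With all cells, 135 rows were found in 45 cells or more. Thinned to 1500 counts, close to the shallowest cell, 10 rows were still found in 50 cells. These 10 were Pcdh10, Sdccag8, Dnajc27, Csnk2a1, Tmem170a, Crebbp, Xpnpep3, LOC103693984, AABR07015057.1 and AABR07000398.1, and 9 of them, all but Dnajc27, also had 5 or more counts in at least 50 cells.

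The members took 30.8% ± 5.64 of all counts (SD, n = 3 rats; each rat the mean of its cells). The rat means were 25.2% in rat 1, 30.6% in rat 2 and 36.5% in rat 3. For scale, the 84 rows found in 45 to 49 cells took 6.99% ± 1.07, ribosomal protein genes 1.62% ± 0.703, the housekeeping list 1.43% ± 0.682, mitochondrially encoded genes 0.715% ± 0.119 and the macrophage list 0.286% ± 0.0846 (SD, n = 3 rats). The share rested on few rows. The 3 largest members took 16.4% and the 10 largest 26.0% of counts, and without AABR07015057.1 the share was 23.0% ± 3.73. In 44 of 52 cells the row with the most counts was a member. It was AABR07015057.1 in 22 cells, Pcdh10 in 18, Dnajc27 in 3 and Sdccag8 in 1. Shares per cell ran from 12.8% (exact Clopper-Pearson 95% interval 12.1 to 13.5) in cell 25 of rat 2 to 60.4% (60.05 to 60.71) in cell 44 of rat 3. In the first of these, Chd4, a chromatin remodeller that is no member and is named after its value was seen, held 46.4% of counts. In the second, AABR07015057.1 held 51.6%. These intervals cover counting error only.

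**Figure D1:**
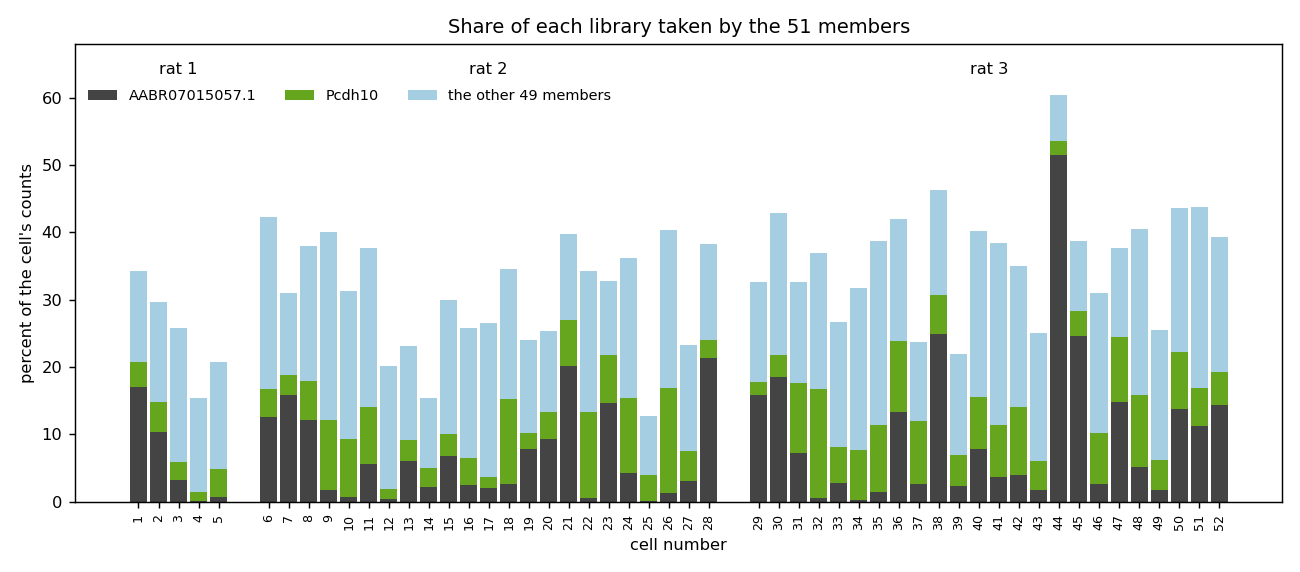
Percent of each cell's counts (vertical axis) taken by AABR07015057.1, Pcdh10 and the other 49 members, for the 52 cells in order of cell number within each rat. The median cell stands at 25.8% in rat 1, 31.3% in rat 2 and 38.0% in rat 3, cell 44 of rat 3 reaches 60.4% through AABR07015057.1, and cell 25 of rat 2 is lowest at 12.8%.

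Values below are raw counts per cell, percent of a cell's counts, or log2(CPM + 1) levels, where CPM is the count scaled to the cell's total. Counts were not divided by transcript length, so a difference between 2 members in counts is not a difference in transcript number. Whether reads that match several genes or the opposite strand were counted is not given in the sources used here, so rows with near-identical copies or overlapping genes are uncertain.

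Among proteins of the cell surface, Pcdh10 led the whole set. It encodes a protocadherin, a calcium-dependent adhesion protein best known in neurons. Pcdh10 had at least 107 counts in each of the 52 cells, a median of 777 and a highest value of 3475, and its level was 15.48 ± 0.55 (SD, n = 3 rats). Its median share was 3.81% in the cells of rat 1, 4.16% in those of rat 2 and 7.51% in those of rat 3. No other named gene was at 100 or more counts in all cells. Mip, the aquaporin of lens fibre cells, ranged from 0 to 131 counts with a median of 26.5. Cpm, a membrane-bound carboxypeptidase, ranged from 1 to 137 with a median of 13.5. The lysophosphatidic acid receptor Lpar4, Paqr9 and the caveola coat protein Cavin1 had medians of 6, 4 and 8 counts.

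Genes of small GTPases, cilia and the cytoskeleton took 7.24% ± 0.152 of counts (SD, n = 3 rats). Sdccag8, a centrosomal protein needed for cilia, ranged from 9 to 2862 counts with a median of 378.5, and its level was 14.10 ± 1.10. Its median share was 1.33% in rat 1, 1.54% in rat 2 and 4.43% in rat 3, with overlapping ranges. Dnajc27, a Rab-like GTPase with a J domain, was at 0 in cell 23 of rat 2 and cell 37 of rat 3 and reached 1854 counts elsewhere, with a median of 227.5. Its median share went the other way across rats, at 3.46% in rat 1, 2.16% in rat 2 and 0.822% in rat 3. Rab40b, a Rab GTPase that recruits a ubiquitin ligase, did the same, at 1.97%, 0.612% and 0.259%, with 0 to 1083 counts per cell. With 3 rats, such orders are descriptions. Fmn1, an actin-nucleating formin, Rasl2-9, a close relative of the GTPase Ran, and Cplane2, a ciliogenesis GTPase, had medians of 12, 14 and 6 counts.

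Among enzymes of protein modification and turnover, Csnk2a1, a catalytic subunit of casein kinase 2, had 6 to 627 counts with a median of 143. Its level was among the steadiest between rats, at 13.00 ± 0.27 (SD, n = 3 rats). Ube2e3, a ubiquitin-conjugating enzyme, had 1 to 339 counts with a median of 58. The RING finger gene Rnf225 had 1 to 238 with a median of 45. All 3 were found in all 52 cells. Stk11, the kinase also called LKB1 that activates AMPK, had 1 to 95 counts with a median of 19.5. The deubiquitinase Usp4, the F-box protein Fbxw7, the RING finger ligase Rnf6 and N4bp3 had medians of 10 to 14.5 counts, and 218 of the 1053 Fbxw7 counts came from cell 8 of rat 2.

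Transcription and chromatin genes took 1.19% ± 0.433 of counts (SD, n = 3 rats). Crebbp, an acetyltransferase that acts as a coactivator for many factors, had 10 to 423 counts with a median of 83, and its level was 12.09 ± 0.63. Tcf23, a helix-loop-helix factor, had 1 to 92 with a median of 18.5. Zc3h4, a zinc finger protein that limits non-coding transcription, had 1 to 89 with a median of 20. The cohesin subunit Stag2 had the lowest level of all members (7.66 ± 0.70), with 0 to 28 counts. Prdm16, Foxp2, the histone chaperone Rbbp4, the methyltransferase Setd7 and the mediator subunit Med26 had medians of 6 to 15 counts, and cell 15 of rat 2 held 25.2% of all Foxp2 counts.

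RNA processing genes were lower. Fam32a, a spliceosome-associated protein, had 2 to 99 counts with a median of 22. The splicing factor Sf3a1, the export factor Alyref, the splicing modulator Arglu1, Tnrc6a, which carries out silencing by microRNAs, and Lsm12 had medians of 6.5 to 9.5 counts. Together the 6 genes took 0.452% ± 0.147 of counts (SD, n = 3 rats).

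Organelle and lipid genes took 1.99% ± 0.288 of counts (SD, n = 3 rats). Tmem170a, a membrane protein of the endoplasmic reticulum and nuclear envelope, had 0 to 1036 counts with a median of 120. Lamp1, the lysosomal membrane glycoprotein, is abundant in macrophages but expressed by most cell types, and had 2 to 675 counts with a median of 35. Of its 3010 counts, 22.4% came from cell 33 of rat 3. Acer2, a Golgi ceramidase, had 0 to 159 counts and Bnip3l, a receptor for mitophagy, 1 to 139, with medians of 22 and 21.5. The golgin Golga1 and Fitm2, which acts in lipid droplet formation, had medians of 15.5 and 15. Among other enzymes, Xpnpep3, a mitochondrial aminopeptidase, had 6 to 326 counts with a median of 72. Ddah1, which breaks down an inhibitor of nitric oxide synthase, and the hyaluronidase family gene Hyal4 both had a median of 18.5 counts.

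The remaining 7 members have no role given here. AABR07015057.1 had 10 to 43756 counts, with a median of 752 and a level of 15.11 ± 0.64 (SD, n = 3 rats). It alone took 7.76% ± 2.20 of counts, and 37.9% of its 115480 counts came from cell 44 of rat 3. AABR07000398.1 had 1 to 4053 counts with a median of 209.5. LOC103693984 had 11 to 919 counts with a median of 184.5, and LOC100911622 had 2 to 68 with a median of 22.5. AABR07035501.1, RGD1566159 and Ccdc190 had medians of 12.5 to 13 counts. RefSeq's gene table of assembly GRCr8 had no entry for 6 of these 7, all but Ccdc190. The 45 members that it did match were all protein coding, lay on 16 chromosomes with at most 6 on 1 of them, and included 0 pairs that neighbour each other among protein-coding genes. Their gene spans had a median of 24713 bases, against 19626 bases over all matched rows.

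**Figure D2:**
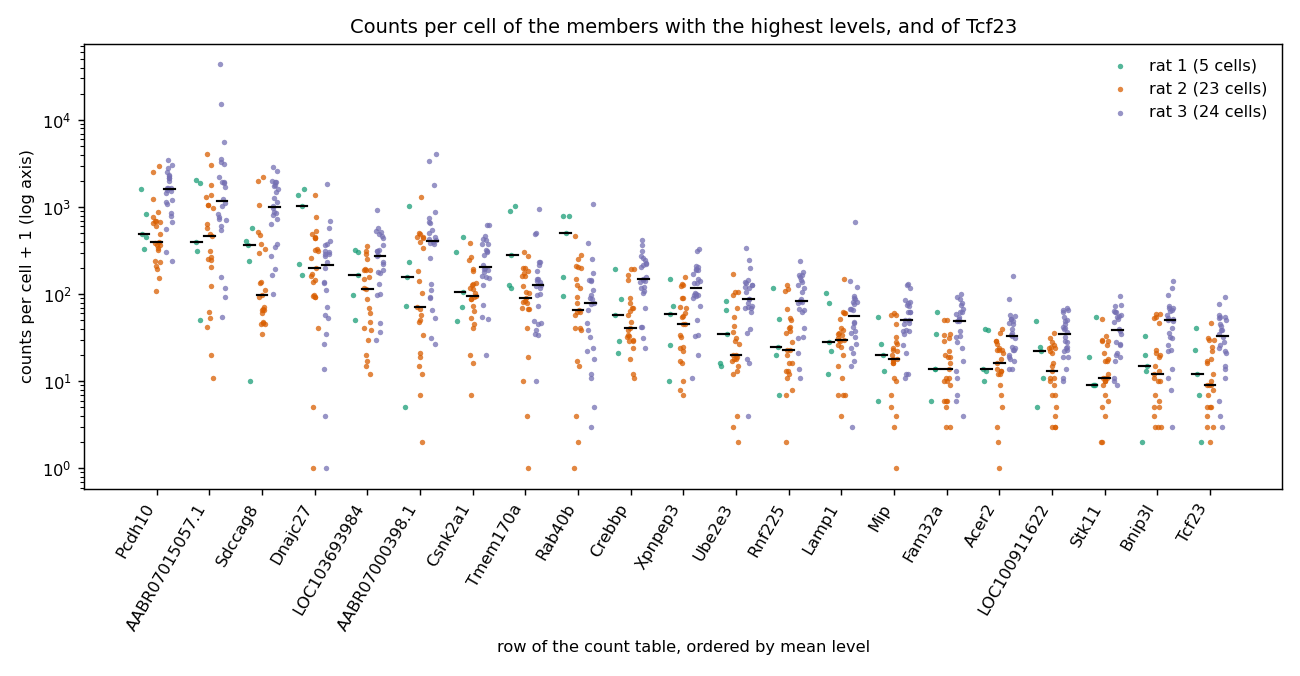
Counts per cell plus 1 on a log axis for the 20 members with the highest mean level and for Tcf23, with 1 point per cell, coloured by rat, and a black bar at each rat's median. Pcdh10 stays above 100 counts in every cell, while AABR07015057.1 spans 10 to 43756 counts.

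The order of members was alike in the 3 rats. Across the 51 members, the levels of rat 2 and rat 3 had a Pearson r of 0.96, those of rat 1 and rat 2 of 0.93 and those of rat 1 and rat 3 of 0.88. These correlations run over genes, which are not independent replicates. Deeper cells held more member counts: log2 of the summed member counts and log2 of the cell total had an r of 0.91 in rat 2 and 0.94 in rat 3. The total includes the members' own counts, so part of this r was fixed in advance. For single members the r between log2(count + 1) and log2 of the total had a median of 0.63 in rat 2 and 0.53 in rat 3. Cell 41 of rat 3 held the highest count of 16 of the 51 members, more than any other cell.

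Co-variation was read over the cells of 1 rat at a time, for rat 2 (23 cells) and rat 3 (24 cells), since rat 1 had 5 cells. Cells of a rat share the animal and differ in depth, so these r values are descriptions with no p. Over the 1275 pairs of members, the median Pearson r of the levels was 0.19 in rat 2 and 0.52 in rat 3, against 0.21 and 0.30 over the 3486 pairs of rows found in 45 to 49 cells. In 193 pairs (15.1%) the r was at least 0.5 in both rats, against 5.39% of the pairs of rows found in 45 to 49 cells. Members also had more counts, with a median total of 1207, against 410 for those rows, and the part of counting error in this difference was not tested. The median in rat 2 rested in part on its shallowest cells. Without cells 18 and 23 it was 0.31 for members and 0.13 for the other rows, and 267 member pairs (20.9%) reached 0.5 in both rats, against 5.74%. Without cell 44 of rat 3 the median in rat 3 was 0.46 for members and 0.25 for the other rows. The r values of the same pair in rat 2 and rat 3 had a correlation of 0.41 over member pairs and 0.18 over pairs of the other rows.

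The members that went with most others, by the median r with the other 50 averaged over both rats, were Rnf225 (0.59), Csnk2a1 (0.59), Xpnpep3 (0.57), Crebbp (0.56) and Stk11 (0.54). At the other end stood AABR07015057.1 (-0.24), AABR07000398.1 (-0.21), Hyal4 (0.05), Rab40b (0.10) and Arglu1 (0.10). An r of at least 0.8 was found for 25 pairs in rat 2 and 144 in rat 3, and for 7 pairs in both. These were Crebbp with Tcf23 (0.87 in rat 2, 0.94 in rat 3), Crebbp with Xpnpep3 (0.85, 0.97), Tcf23 with Xpnpep3 (0.86, 0.91), LOC103693984 with Xpnpep3 (0.90, 0.92), Csnk2a1 with Xpnpep3 (0.81, 0.94), Crebbp with Fam32a (0.82, 0.86) and Fmn1 with Usp4 (0.87, 0.83). Without cells 18 and 23 of rat 2 the first 6 had an r of 0.80 to 0.91 in rat 2, and Fmn1 with Usp4 had 0.45. The number of such pairs was then 18 in rat 2 and 12 in both rats, so the list of 7 depends on those cells. Without cell 44 of rat 3, 110 pairs reached 0.8 in rat 3 and 7 in both. Of the 25 pairs in rat 2, 11 joined 2 members that were both at 0 in cell 23, and 6 joined 2 that were both at 0 in cell 18.

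**Figure D3:**
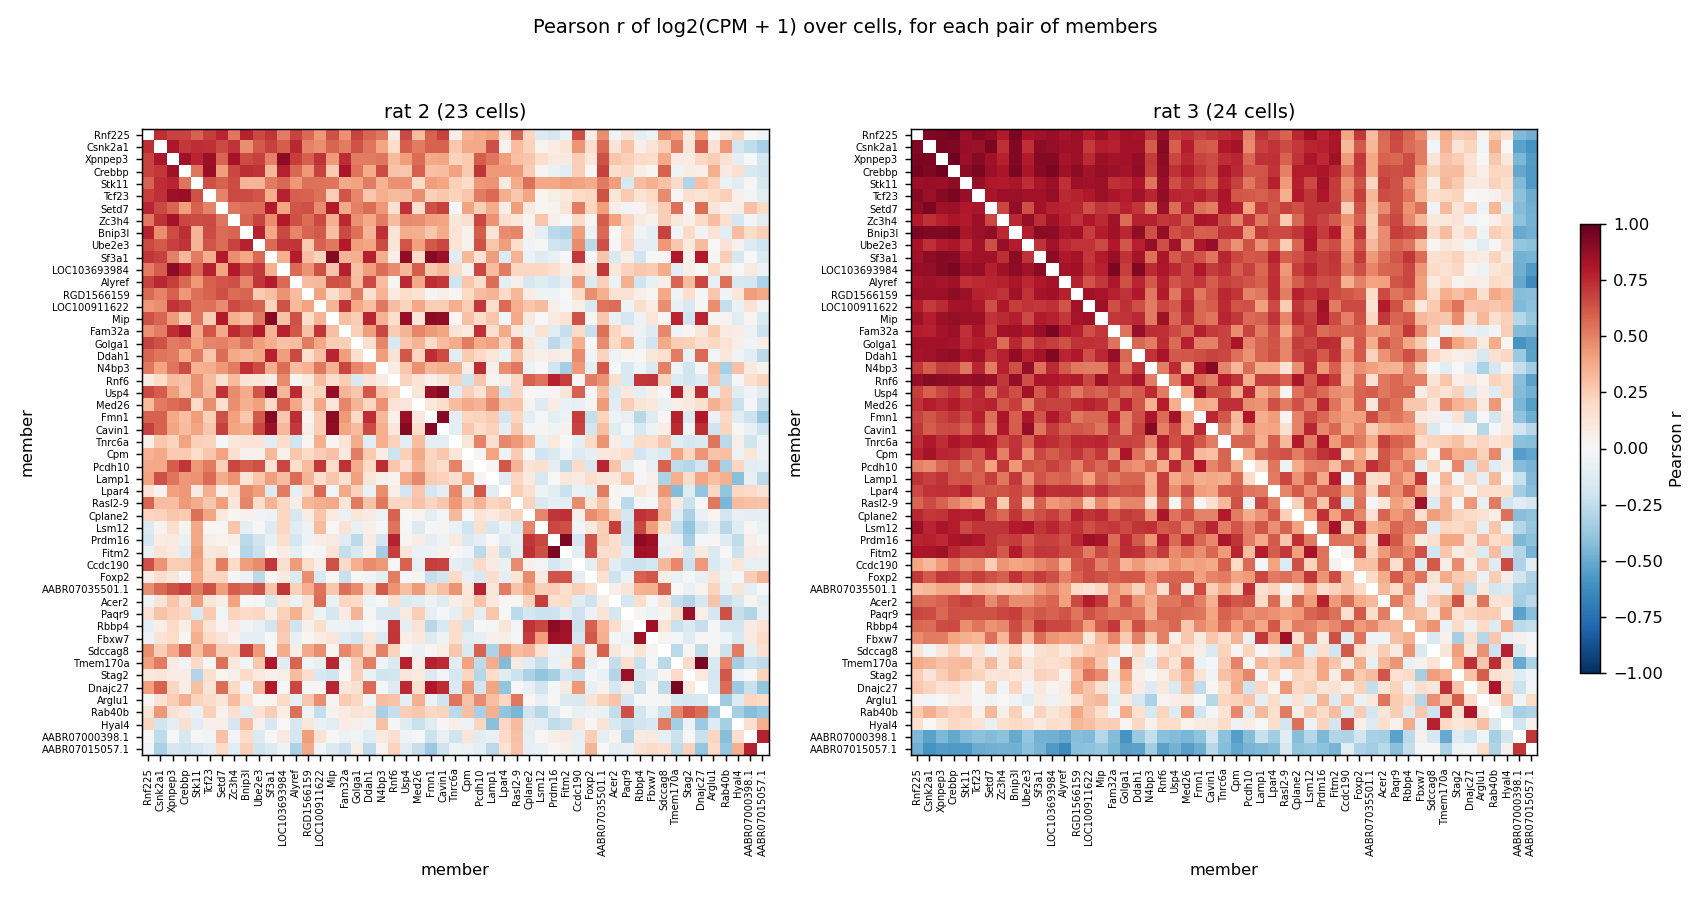
Pearson r of log2(CPM + 1) over cells for each pair of the 51 members, in rat 2 (23 cells) and rat 3 (24 cells), with members in the same order in both panels, from the highest to the lowest median r. The block around Rnf225, Csnk2a1, Xpnpep3 and Crebbp is positive in both rats, and AABR07000398.1 and AABR07015057.1 are negative against most others in rat 3.

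Crebbp, Tcf23 and Xpnpep3 varied little against each other in cells of all 3 rats. The median ratio was 2.31 on the log2 scale for Crebbp over Tcf23 and 0.30 for Crebbp over Xpnpep3. Over 52 cells the SD of the log2 ratio was 0.47 for Crebbp and Tcf23, against 0.54 from counting error alone. It was 0.48 for Tcf23 and Xpnpep3, against 0.55, and 0.40 for Crebbp and Xpnpep3, against 0.31. The spread of the first 2 ratios was thus no larger than the counting error estimated here. That estimate is an approximation averaged over cells that is least exact at low counts, and Tcf23 had as few as 1 count. It therefore cannot show that these ratios vary by counting error alone. Over all 1275 pairs of members the SD of the log2 ratio had a median of 1.27, against a median counting error of 0.77, and it was at or below counting error in 48 pairs (3.76%). Others among these 48 were Rnf225 with Setd7 (0.66, against 0.80) and Alyref with Sf3a1 (0.85, against 1.00), so this trait was not particular to Crebbp, Tcf23 and Xpnpep3. Counting error here leaves out the variation added by amplification. Dnajc27 with Tmem170a had an r of 0.95 in rat 2 and 0.73 in rat 3, and both were at 0 in cell 23 of rat 2, but their log2 ratio had an SD of 1.45 against a counting error of 0.56, and without cells 18 and 23 of rat 2 the r there was 0.75. P2ry6, the nucleotide receptor left out of the set, went with the same 2 genes, at 0.91 and 0.85 with Tmem170a and 0.94 and 0.74 with Dnajc27. Its r values were not computed without cells 18 and 23 of rat 2.

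**Figure D4:**
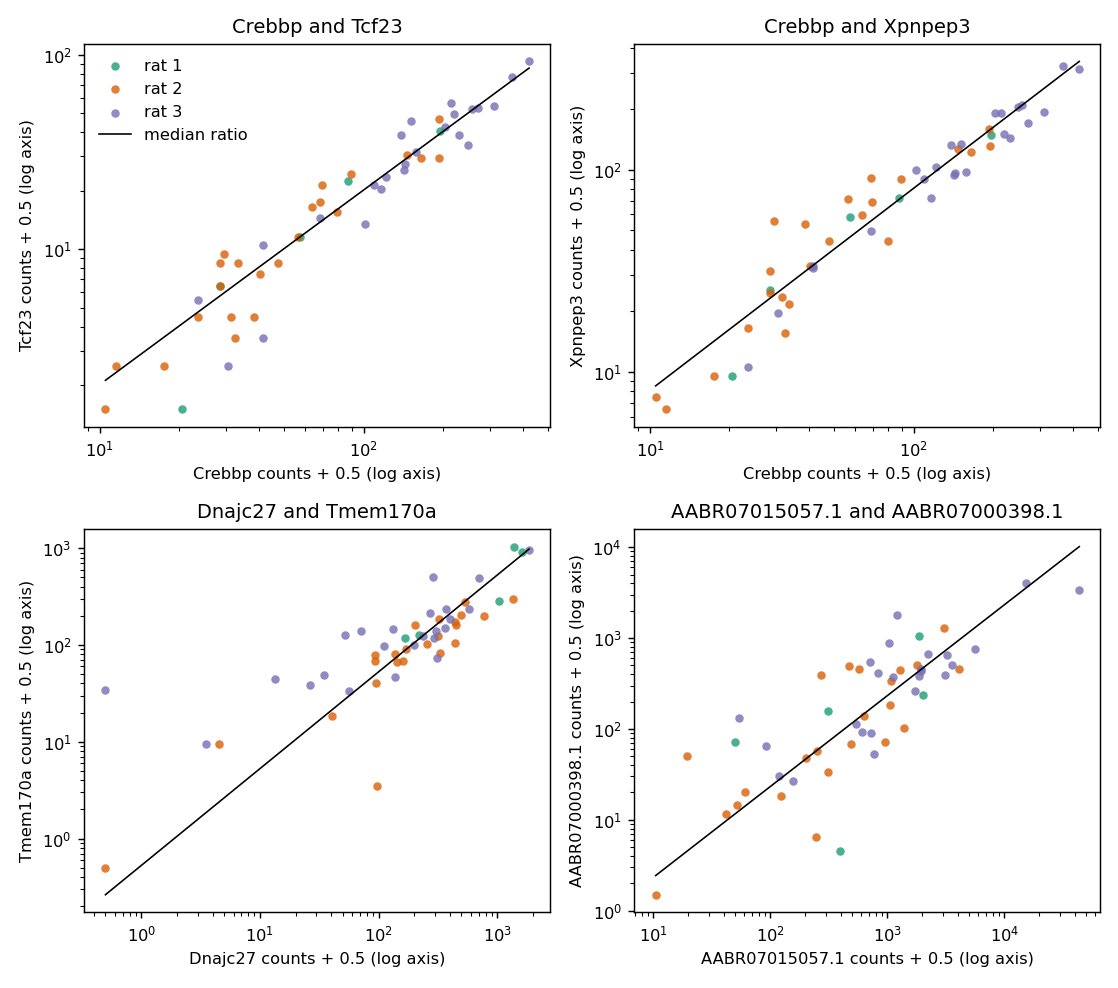
Counts plus 0.5 of 2 members against each other, on log axes, for 4 pairs over the 52 cells, coloured by rat, with a line at the median ratio. Crebbp with Tcf23 and with Xpnpep3 follow the line in all 3 rats, while Dnajc27 with Tmem170a and the pair of unnamed rows spread widely around it.

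Pcdh10 had an r of at least 0.5 in both rats with 11 members, among them Fam32a (0.73 in rat 2, 0.68 in rat 3), Crebbp (0.72, 0.63), LOC100911622 (0.71, 0.65) and AABR07035501.1 (0.76, 0.73), and the last of these was the row of the table most like it. The search for the most alike row covered 295 rows found in at least 15 cells of rat 2 and of rat 3. By the lower of both r values, Crebbp was most like Tcf23, Csnk2a1 most like Xpnpep3, and Alyref and Ddah1 both most like Zfp703, a row found in 49 cells.

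AABR07015057.1 and AABR07000398.1 went with each other, and in rat 3 they went against most other members. Their r was 0.77 in rat 2 and 0.71 in rat 3. Rows outside the members went with them as well. AABR07015081.2, found in 46 cells, had 0.58 and 0.68 with AABR07015057.1 and 0.58 and 0.53 with AABR07000398.1. Spag11a, found in 39 cells, had 0.64 and 0.66 with AABR07015057.1. Against the other 49 members AABR07015057.1 had a negative r with 31 in rat 2 and 46 in rat 3, and AABR07000398.1 with 25 and 48. The shares of 1 library add up to a fixed sum, so a row that takes much of it lowers the share of the rest. With both rows taken out of the total used for the others, the numbers were 25 and 42 for AABR07015057.1 and 17 and 47 for AABR07000398.1.

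Upstream sequence is shown for 4 genes taken from the pairs with an r of at least 0.8 in both rats. These 4 were picked by hand, and Rnf225 and the other genes of those pairs are not shown. In rat 2 Csnk2a1 had an r of 0.70 with Crebbp and 0.73 with Tcf23, so not all pairs among the 4 reached 0.8. RefSeq's promoter table (GRCr8) held 44 start sites for 40 of the members. The lines below give the bases before the annotated start of Crebbp (chr10:11842090-11842306, plus strand), Xpnpep3 (chr7:114806148-114806397, plus strand), Tcf23 (chr6:31126576-31126825, minus strand) and Csnk2a1 (chr3:161170141-161170294, plus strand), each 5′ to 3′ on the strand of the gene. Capitals mark GGGCGG or its reverse complement CCGCCC, and neighbouring matches run together. The lines of Crebbp and Csnk2a1 are shorter because their 250-base windows reach into the annotated gene, where they were ended.
Crebbp: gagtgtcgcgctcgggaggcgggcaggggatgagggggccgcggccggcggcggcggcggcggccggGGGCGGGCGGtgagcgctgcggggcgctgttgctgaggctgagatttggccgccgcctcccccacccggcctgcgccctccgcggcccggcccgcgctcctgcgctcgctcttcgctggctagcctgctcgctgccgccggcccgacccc
Xpnpep3: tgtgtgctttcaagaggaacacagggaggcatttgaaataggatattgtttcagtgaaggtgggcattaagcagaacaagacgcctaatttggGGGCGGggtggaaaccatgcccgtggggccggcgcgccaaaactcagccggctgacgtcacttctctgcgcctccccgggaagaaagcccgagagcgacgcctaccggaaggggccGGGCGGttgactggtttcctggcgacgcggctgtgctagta
Tcf23: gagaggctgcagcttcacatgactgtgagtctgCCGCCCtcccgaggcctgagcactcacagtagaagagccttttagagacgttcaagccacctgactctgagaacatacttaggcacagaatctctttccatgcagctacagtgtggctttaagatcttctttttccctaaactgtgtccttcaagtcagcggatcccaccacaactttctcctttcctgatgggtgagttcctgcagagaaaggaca
Csnk2a1: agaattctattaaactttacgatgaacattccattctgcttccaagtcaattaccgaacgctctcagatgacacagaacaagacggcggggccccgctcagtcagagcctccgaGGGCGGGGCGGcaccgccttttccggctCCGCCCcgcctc
Crebbp held 2 matches in a window of 81.6% GC, Xpnpep3 2 at 59.2% GC, Tcf23 1 at 50.0% GC and Csnk2a1 3 at 57.1% GC. The values that follow, shared runs included, use full windows of 250 bases before each start site. Unlike the lines above, these windows were not ended where they reach into the annotated gene. Of 44 member promoters, 27 (61.4%) held GGGCGG or CCGCCC, against 46.0% of 16607 promoters of all matched rows. The median GC content was 61.2%, against 56.8%. The letters CCAAT or ATTGG stood in 47.7%, against 34.4%, TATAAA or TTTATA in 11.4%, against 10.6%, and GGAAGT or ACTTCC in 13.6%, against 21.1%. The longest run of letters shared by 2 member promoters had a median of 9 over all pairs and was 8 to 12 in the pairs among these 4 genes. A match in letters is no measured binding site.

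How the members went with macrophage transcripts depended on how they were summed. The log2 level of all members summed and that of the macrophage list summed had an r of -0.21 in rat 2 and -0.39 in rat 3. Without the 2 cells farthest from the median member level in each rat these were -0.32 and -0.31. The sum follows its largest rows: without AABR07015057.1 and AABR07000398.1 the r was -0.04 in rat 2 and 0.27 in rat 3. Taken one at a time, the members had a median r with the macrophage list of 0.17 in rat 2 and 0.32 in rat 3. It was positive in both rats for 33 of 51 members (64.7%), against 59.6% of 2324 other rows with counts in at least 5 cells of rat 2 and of rat 3, and negative in both for 5 (9.80%), against 8.61%. Of the 84 rows found in 45 to 49 cells, 76.2% were positive in both and 3.57% negative in both. Of the 25 macrophage genes, 19 had a value with the summed members in both rats, of which 7 were negative in both, 3 positive in both and 9 of different sign. Lyz2 had -0.47 in rat 2 and -0.42 in rat 3, and Csf1r -0.46 and -0.19. The 3 positive ones, named after their values were seen, were Msr1 (0.32, 0.23), Adgre1 (0.15, 0.15) and Ptprc (0.14, 0.15). Fcgr3a stood at 0.21 and -0.02 and Mrc1 at 0.08 and -0.01. Lyz2 and Msr1 had counts in 9 cells each and Csf1r in 12, so these values rest on few cells. The macrophage level also moved with the number of genes detected, with an r of 0.56 in rat 2 and 0.22 in rat 3, and the part of depth in these values was not tested.

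Members had a negative r with the lipid-associated and housekeeping lists more often than the 2324 other rows, and so did the 84 rows found in 45 to 49 cells. With the lipid-associated list, which includes Apoe, the r was negative in both rats for 40 of 51 members (78.4%), against 56.0% of the rows found in 45 to 49 cells and 30.5% of the 2324 other rows, with a median for members of -0.21 in rat 2 and -0.13 in rat 3. The summed members had -0.39 and -0.36 with this list, and -0.62 and -0.05 without AABR07015057.1 and AABR07000398.1. The rows found in 45 to 49 cells, summed, had -0.33 and -0.40. Without the 2 cells farthest from the median member level in each rat, all members summed had -0.33 and -0.25. By Spearman rank correlation over all cells they had -0.46 and -0.15. The list's sum was at 0 in 12 cells, and the part of these cells in the r values was not tested. Apoe held 6380 of the list's counts, and Ctsb, the next largest gene of the list, 1634. Of its most often detected genes, Abca1, a cholesterol exporter found in 26 cells, had -0.32 in rat 2 and 0.05 in rat 3 with the summed members, Apoe -0.31 and -0.35, and Gpnmb, found in 12 cells, -0.14 and -0.38. Of the 10 genes of the list with a value in both rats, 8 were negative in both, 1 was positive in both and 1 differed in sign. With the housekeeping list the r was negative in both rats for 38 of 51 members (74.5%), against 63.1% of the rows found in 45 to 49 cells and 37.9% of the 2324 other rows. With ribosomal protein genes it was negative in both for 32 members (62.7%), against 48.8% and 27.6%. The summed members had 0.04 in rat 2 and -0.08 in rat 3 with the housekeeping list, and -0.44 and -0.55 without AABR07015057.1 and AABR07000398.1. The rows found in 45 to 49 cells, summed, had -0.24 and -0.25 with it. All members summed had 0.12 and -0.16 with ribosomal protein genes and 0.08 and -0.35 with mitochondrially encoded genes. They had -0.17 and -0.09 with fibroblast genes, and -0.03 and -0.14 with endothelial genes. Several of these rested on few cells. Without the 2 cells farthest from the median member level in each rat, ribosomal protein genes had -0.31 and -0.14. Mitochondrially encoded genes then had -0.01 and -0.26, the housekeeping list 0.09 and 0.18, fibroblast genes -0.38 and -0.25, and endothelial genes 0.25 and -0.13. Without cell 25 of rat 2 the number of members with a negative r in both rats for ribosomal protein genes was 42 (82.4%), against 36.0% of the 2324 other rows. Members share cells and co-vary, so these counts are not independent, and all shares within a library are bound to a fixed sum. Without cell 39 of rat 3, which held 3411 Apoe counts, the number for the lipid-associated list was 38 of 51, and without cells 18 and 23 of rat 2 it was 39.

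With smooth muscle genes the sum and the single members pointed in different directions. The summed members had an r of 0.47 in rat 2 and 0.45 in rat 3 with the smooth muscle list, and its most often detected genes had 0.36 and 0.45 (Mylk) and 0.42 and 0.37 (Acta2). Without the 2 cells farthest from the median member level in each rat, the r of the summed members was 0.28 and 0.42. Without AABR07015057.1 and AABR07000398.1 it was 0.10 and -0.23. AABR07015057.1 alone had 0.31 and 0.49 with this list. One at a time, 24 of 51 members (47.1%) had a negative r in both rats, against 40.5% of the rows found in 45 to 49 cells and 16.5% of the 2324 other rows, and 5 (9.80%) a positive one, against 2.38% and 37.1%. Without cells 18 and 23 of rat 2 the negative ones numbered 13 (25.5%), against 19.4% of the 2324 other rows. Smooth muscle genes were low throughout, at 0.0720% ± 0.0381 of counts (SD, n = 3 rats), and their sum was at 0 in 4 cells.

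**Figure D5:**
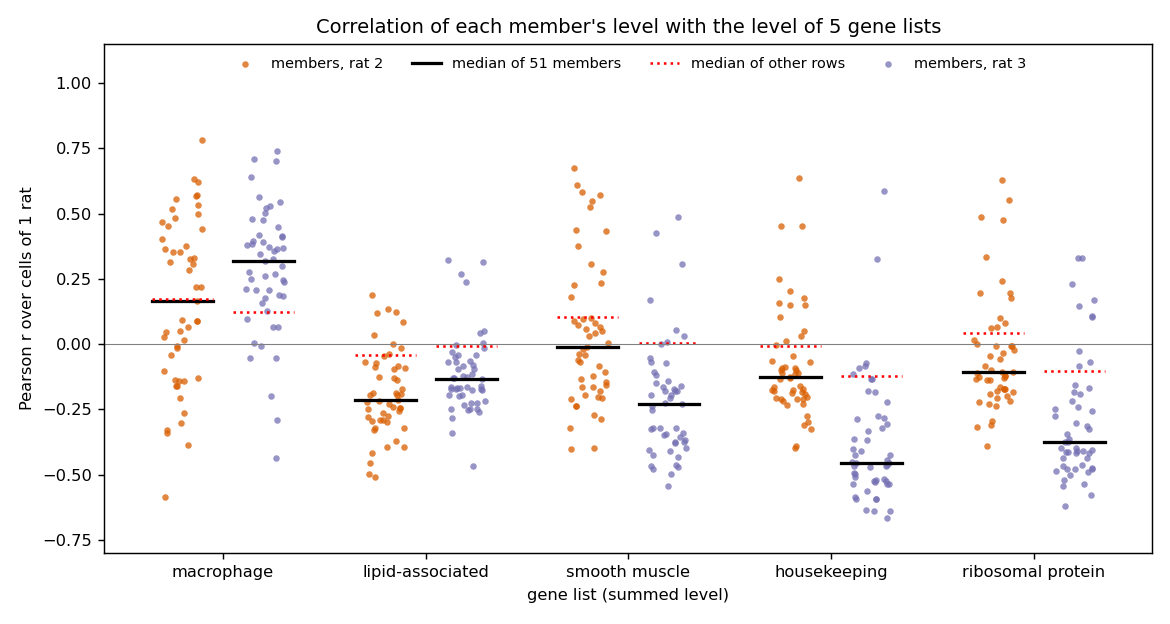
Pearson r over the cells of 1 rat between each member's level and the summed level of 5 gene lists, with 1 point per member for rat 2 and rat 3, a black bar at the median of the 51 members and a dotted red bar at the median of 2324 other rows. Most members lie below 0 for the lipid-associated, housekeeping and ribosomal protein lists, and above 0 for the macrophage list.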

How the data were processed

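The deposited table holds whole-number read counts per gene, not normalized, for 52 single cells in 22081 rows. Per the labels' protocols, single cells were cut by laser and amplified with a SMART-Seq kit, and no source used here gives what the authors used to align and count reads, the genome build or the handling of strand. Each cell is its own library, so the rat was taken as the replicate (n = 3): values were averaged over the cells of a rat, then over rats. All samples form 1 group, so no test between groups was made and correlations carry no p.

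Levels are log2(CPM + 1) with the column total as library size. Correlations used the cells of rat 2 and of rat 3. The counting SD of a ratio was computed from Poisson error. RefSeq names and promoters (GRCr8) were matched by symbol. Python 3.11.15, numpy 2.4.6, pandas 2.3.3, scipy 1.17.1, R 4.3.3, edgeR 4.0.16 and DESeq2 1.42.0 were used, the last 2 for alternative scalings only. The scripts were checked on simulated data.

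The members and gene lists were chosen with earlier results of these data known. Per-cell values were to be given for the 20 members with the highest level and for Pcdh10, Sdccag8, Csnk2a1 and Crebbp, others by range, with the 5 most and 5 least co-varying members and the most often detected genes of each list. Further members' values, single pairs and other rows were added after their values were seen.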

Additional observations from a re-analysis of the deposited data

How the results depend on the processing

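No paired analysis was possible because all samples form 1 group. The 51 members became 29 rows at 2 or more counts, 11 at 5 or more, 22 in all 52 cells, 135 at 45 or more cells and 10 after thinning to 1500 counts. Without rat 1, 38 rows were found in at least 46 of 47 cells. Without rat 2, 113 rows were found in at least 28 of 29, and without rat 3, 41 in at least 27 of 28. These thresholds allow fewer gaps than 50 of 52, so the lower numbers are not an effect of the rat alone. Their share of counts was 30.8%. Divided by TMM library sizes in place of the cell totals, their counts came to 37.1%, and by DESeq2 size factors to 43.6%. Neither of these is a share of a library, since the scaled sizes are not the cell totals. The DESeq2 size factors rest on 22 rows that are all members. The share of counts was 23.0% without AABR07015057.1, 21.1% without AABR07000398.1 as well, and 27.9% to 33.5% without 1 rat. The mean r of the summed members with macrophage transcripts, -0.30, was 0.13 without AABR07015057.1 and 0.12 without both rows, and with the smooth muscle list, 0.46, it was -0.016 and -0.064. Without 1 rat the first ran from -0.39 to -0.21. The median SD of the log2 ratio of a member to the summed members, averaged over rats, was 1.08, and 0.95 without both rows (1.02 to 1.12 without 1 rat). The cause was not tested. The median member level (9.54; 9.30 to 9.77 without 1 rat) and the median pair r (0.35; 0.19 to 0.52) moved by no more than 1 SD over rats under the alternatives that kept all rats. Of 200 levels of single members under 10 such alternatives, 197 moved by less than 1 SD and the other 3 moved more with DESeq2 size factors. Leaving out 1 of 2 or 3 rats cannot move a mean by 1 SD, so those settings say nothing of stability. Settings that leave out single cells, the cells under 3000 counts or both unnamed rows were added after seeing the data. In the shallowest cell, 1538 counts limit what can be detected.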
